A study of Rattus norvegicus with 12 samples.

Results

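Rab GTPases are the membrane identity switches of the cell, and their transcripts were followed through an immunoprecipitation of Staufen2 from embryonic rat brain. Members were the probes whose gene symbol in the signal table is Rab followed by a number and at most a letter and further digits, after removal of the suffixes for predicted and mapped genes. The rule found 43 of 22226 probes, which carry 41 symbols. Rab2l, the older name of Ralgdsl2, an exchange factor for Ral proteins, is not a Rab GTPase and was set aside, which left 42 probes of 40 Rab genes.

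A rabbit polyclonal antibody against Staufen2 (6 arrays) or preimmune antibody (6 arrays) was used to pull RNA from brain extracts, to find the transcripts held by Staufen2 particles. Both came from whole-brain lysates of Sprague-Dawley rat embryos, E17-E18 in the protocols and P18 embryonic brain in the tissue labels. The RNA was amplified, labelled with biotin and hybridised to Illumina BeadChips. The labels do not say which brains or lysates, pooled or single, an array came from, so the p-values cover variation among arrays, which may be partly technical. Replicate 0 is the Staufen2 array whose label has no number.

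A Rab protein cycles between a GTP-bound form on membranes, where it recruits effectors such as tethers and motors, and a GDP-bound form held in the cytosol. Exchange factors load GTP and GTPase-activating proteins end the cycle. Each Rab marks its own compartment, and in neurons Rab proteins direct synaptic vesicle release, endosome transport along axons and dendrites, and membrane supply to growing neurites. Staufen2 binds double-stranded RNA and is part of the granules that carry transcripts into dendrites.

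The 2 kinds of immunoprecipitate differed in the share of probes detected and in signal. The probes detected on an array, meaning those with a detection p-value under 0.05, were 45.4% to 48.8% of all probes on Staufen2 arrays and 11.6% to 34.8% on preimmune arrays. Of the 42 Rab probes, Staufen2 arrays detected 29 to 31 (median 30.5) and preimmune arrays 7 to 23 (median 18), with the fewest on preimmune replicates 6 and 2. Neuron markers were tested for 9 of 9 genes on the array and had a summed signal of 23212 to 34604 on Staufen2 arrays and 822 to 6162 on preimmune arrays, and 7 of 7 progenitor markers had 7250 to 16195 on Staufen2 arrays and 691 to 4591 on preimmune arrays. Red blood cell markers were present as well (6 of 7 tested), with a summed signal of 10685 to 33682 on Staufen2 arrays and 855 to 17728 on preimmune arrays, while 2 of 7 markers of vessels and microglia, 4 of 6 of oligodendrocytes and astrocytes and 2 of 6 of liver and muscle were tested. The part of these cells and of RNA yield in the results below was not tested. Within such bulk lysates the number of cells of a type and its RNA per cell cannot be told apart.

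A probe was tested if 6 or more of the 12 arrays detected it, and 28 Rab genes (70%) had 1 such probe each. All 28 were detected on every Staufen2 array, whereas 6 were detected on every preimmune array (Rab1, Rab3d, Rab10, Rab18, Rab24 and Rab28) and 2 on none (Rab27a and Rab40c). The tested genes therefore passed through the group where they were high. Of the 12 untested genes, 8 were detected on no array (Rab3c, Rab12, Rab22a, Rab23, Rab27b, Rab33b, Rab37 and Rab39), Rab15 and Rab38 were detected on 5 Staufen2 arrays, Rab34 on 1, and Rab4b on 3 Staufen2 arrays and 1 preimmune array. Their median signals lay between 72.7 and 138 on Staufen2 arrays and between 63.1 and 79.2 on preimmune arrays, against an array background of 73.9 to 86.6 on Staufen2 arrays and 66.7 to 79.6 on preimmune arrays. The highest of these was Rab15, at 86.3 to 211 on Staufen2 arrays and 59.9 to 83.0 on preimmune arrays. The other 2 probes of Rab6b were likewise detected on no array.

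On the deposited scale the Rab signals were high in Staufen2 immunoprecipitates. Every Staufen2 array lay above every preimmune array for 26 of 28 tested genes (92.9%), against 91.1% of all tested probes, so this separation is that of the whole array. Rab13 and Rab24 were the 2 genes whose signals overlapped.

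**Figure D1:**
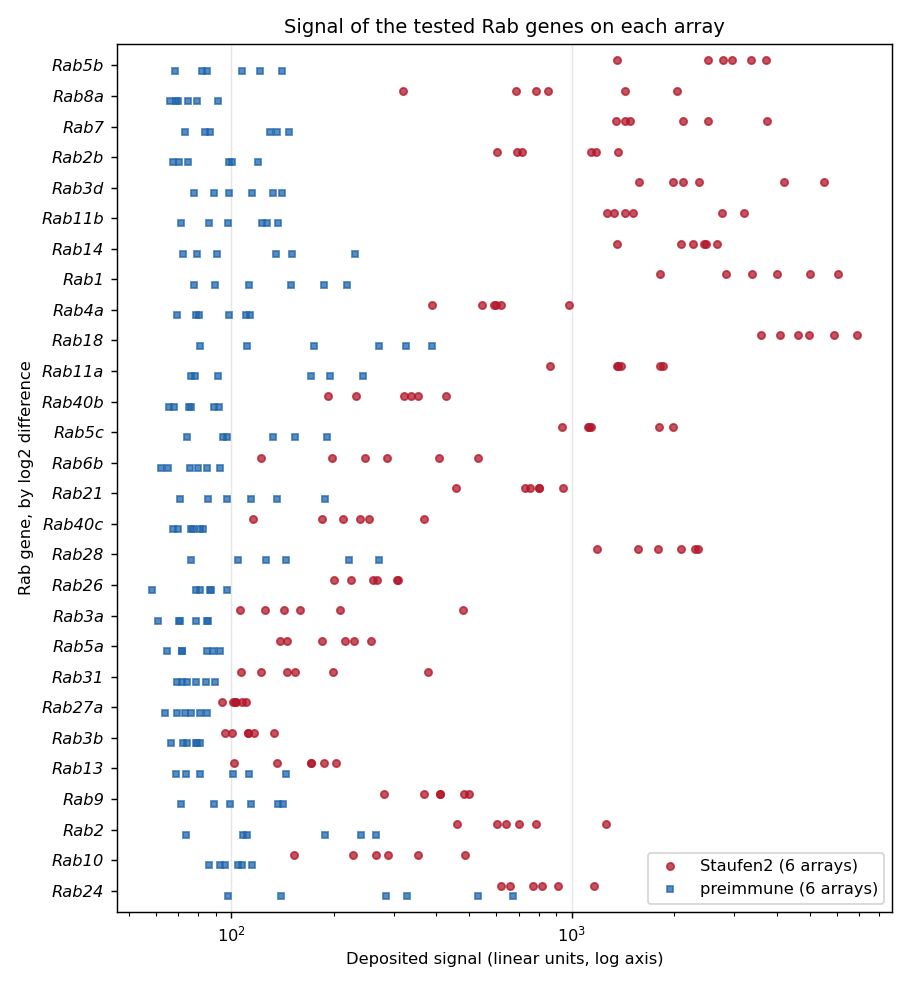
Deposited signal (linear units, log axis) of the 28 tested Rab genes, ordered by log2 difference, with circles for the 6 Staufen2 arrays and squares for the 6 preimmune arrays. The groups are apart for 26 genes and overlap for Rab13 and Rab24.

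Differences below are Staufen2 minus preimmune in log2 units after background correction and quantile normalization, so they are relative to the other transcripts of the same arrays (limma, adjusted over 9136 probes, SE of the fit, n = 6 per group). Of the 28 tested Rab genes, 16 were higher in Staufen2 immunoprecipitates (57.1%), against 31.3% of all tested probes, 2 were lower (7.14%), against 14.5%, and 10 did not pass the threshold of 0.05. Their median difference was 0.64, against 0.08 over all tested probes, and they ran from -2.73 for Rab24 to 3.30 for Rab5b. Normalized values of the groups did not overlap for 12 genes above and 1 below, against 20.9% and 11.7% of all tested probes. With signals left unscaled all 28 genes were higher, against 97.5% of all tested probes, at a median of 2.49 against 1.64 over all tested probes, and 19 of the 28 lay above that median.

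**Figure D2:**
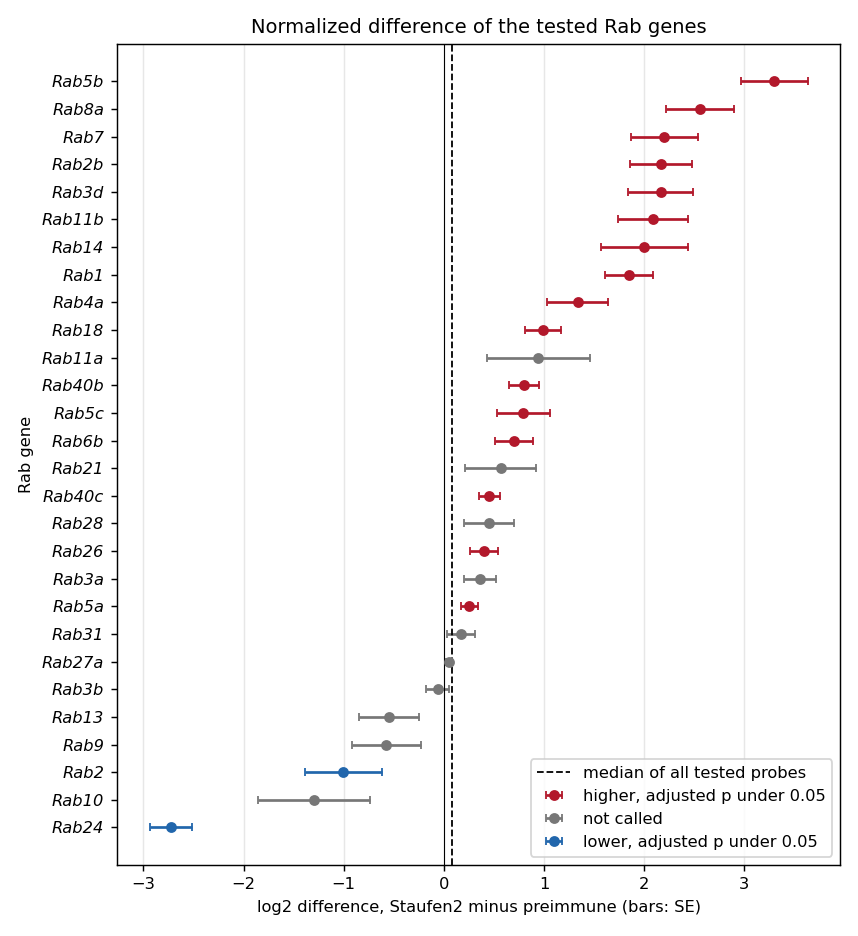
Log2 difference, Staufen2 minus preimmune, of the 28 tested Rab genes with SE bars; red marks an adjusted p under 0.05 and a higher value, blue a lower value and grey no call. The dashed line is the median of all tested probes (0.08), and 21 genes lie above it.

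Rab genes of the endoplasmic reticulum and Golgi, the start of the secretory route, gave 4 higher and 1 lower of 5 tested. All tested probes gave 31.3% and 14.5%, and each compartment group here and below holds only 3 to 5 tested genes. The paralogs Rab2b and Rab2 fell on opposite sides, though the side of Rab2 depended on the scaling. Rab2b, a Golgi Rab, had signals of 604 to 1364 (median 927) on Staufen2 arrays and 67.4 to 120 (median 86.7) on preimmune arrays, 3 of which detected it. The groups were apart, and the normalized difference was 2.17 ± 0.31 (adjusted p = 0.000125).

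Rab2, now Rab2a, acts between the endoplasmic reticulum and the Golgi and had signals of 461 to 1264 (median 670) on Staufen2 arrays and 73.6 to 266 (median 150) on preimmune arrays. Its signals were apart as well, but its normalized values overlapped, at 7.81 to 8.94 on Staufen2 arrays and 7.64 to 9.96 on preimmune arrays. The normalized difference was -1.003 ± 0.38 (adjusted p = 0.0451). That direction turned to 0.40 when arrays were centred on their medians and to 2.25 without scaling, and leaving out 1 array ended the call in 10 of 12 cases (adjusted p up to 0.0904).

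Rab1, which acts from the endoplasmic reticulum to the Golgi, had signals of 1820 to 6070 (median 3698) on Staufen2 arrays and 77.8 to 219 (median 131) on preimmune arrays, with a difference of 1.85 ± 0.24 (adjusted p = 5.2e-05). Rab18, of the endoplasmic reticulum and lipid droplets, had 3598 to 6898 (median 4787) on Staufen2 arrays and 81.0 to 389 (median 223) on preimmune arrays. Both were detected on every array, with the groups apart. The difference of Rab18 was 0.99 ± 0.18 (adjusted p = 0.00067). Rab6b, the brain form of a Golgi Rab, was higher by 0.70 ± 0.19 (adjusted p = 0.00873), with 1 of 6 preimmune arrays detecting it, and was at 0.20 without a call under median centring (adjusted p = 0.35). These values are from its only tested probe, and its other probes were detected on no array.

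At the early endosome the 3 paralogs of Rab5, the Rab of early endosome fusion, were higher after quantile normalization, though Rab5a turned lower under median centring, and they differed widely in size. Rab5b had signals of 1356 to 3726 (median 2871) on Staufen2 arrays and 68.3 to 141 (median 96.3) on preimmune arrays, 4 of which detected it. It had the largest difference of the tested Rab genes, 3.30 ± 0.33 (adjusted p = 1.0e-05), with 2.92 in the first code run and 4.06 in the second. A code run is a stretch of consecutive codes in the file's column headers, and the first holds 4 arrays per group and the second 2.

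Rab5c had 934 to 1979 (median 1130) on Staufen2 arrays and 74.0 to 191 (median 115) on preimmune arrays, 5 of which detected it. Its difference was 0.79 ± 0.26 (adjusted p = 0.0241), at 0.36 in the first code run (adjusted p = 0.120) and 1.66 in the second. Its normalized groups overlapped, and without Staufen2 replicate 4 or 5 the adjusted p was 0.0546 or 0.0560.

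Rab5a, the paralog best known from work on endosome fusion, had 139 to 257 (median 201) on Staufen2 arrays and 64.7 to 92.7 (median 78.4) on preimmune arrays, 2 of which detected it. Its difference of 0.25 ± 0.086 passed the threshold (adjusted p = 0.0276), turned to -0.26 under median centring (adjusted p = 0.0016) and was at 0.015 with array weights (adjusted p = 0.855). It was at 0.15 in the first code run (adjusted p = 0.243) and 0.46 in the second, and lost the call without Staufen2 replicate 0 or 5 or preimmune replicate 2, 5 or 6 (adjusted p 0.0507 to 0.0608). Of the remaining early endosomal genes, Rab21, which acts in integrin uptake, was at 0.57 ± 0.36 (adjusted p = 0.207) and Rab31, between the trans-Golgi network and endosomes, at 0.17 ± 0.14 (adjusted p = 0.337). Under median centring Rab21 was higher at 1.29 (adjusted p = 1.4e-05) and Rab31 lower at -0.31 (adjusted p = 0.0342).

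Recycling Rab genes, which return endocytosed receptors to the surface, gave 3 higher of 4 tested and none lower, against 31.3% and 14.5% of all tested probes. Rab11b, of recycling endosomes, had 1274 to 3206 (median 1473) on Staufen2 arrays and 71.2 to 137 (median 111) on preimmune arrays, with a difference of 2.09 ± 0.35 (adjusted p = 0.000364). Its paralog Rab11a had 864 to 1851 (median 1382) on Staufen2 arrays and 76.3 to 244 (median 132) on preimmune arrays, and its difference of 0.94 ± 0.51 did not pass (adjusted p = 0.145). The normalized Rab11a values lay between 9.17 and 9.68 on Staufen2 arrays and spread from 6.08 to 9.51 on preimmune arrays, so the groups overlapped. It passed on bright-probe values at 0.89 (adjusted p = 0.0291) and under median centring at 1.94 (adjusted p = 4.4e-05), and was at 0.47 without preimmune replicate 2 and 0.18 with array weights. Rab14, between the Golgi and endosomes, and Rab4a, of fast recycling, were higher by 2.00 ± 0.44 (adjusted p = 0.00242) and 1.33 ± 0.30 (adjusted p = 0.00294).

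The late endosomal and autophagic Rab genes split, with 1 higher, 1 lower and 1 without a call, against 31.3% and 14.5% of all tested probes. Rab7, now Rab7a, the Rab of late endosomes and lysosomes, had 1351 to 3743 (median 1802) on Staufen2 arrays and 73.2 to 148 (median 108) on preimmune arrays. The groups were apart and the difference was 2.20 ± 0.33 (adjusted p = 0.000175). Rab24, a Rab of autophagy, had 618 to 1160 (median 793) on Staufen2 arrays and 97.8 to 675 (median 306) on preimmune arrays.

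Those Rab24 signals overlapped, and all 12 arrays detected it. Normalized, Rab24 was the lowest of the tested Rab genes at -2.73 ± 0.21 (adjusted p = 2.3e-06), with every Staufen2 array (7.95 to 8.79) below every preimmune array (10.92 to 11.67), at -2.74 in the first code run and -2.70 in the second. Median centring left -0.80 without a call (adjusted p = 0.0783), and the deposited signal without scaling gave 1.53, still under the 1.64 of all tested probes. Rab9, now Rab9a, of transport from late endosomes to the Golgi, was at -0.57 ± 0.34 (adjusted p = 0.186), and was called lower on bright-probe values (-0.70, adjusted p = 0.00776) and in the first code run (-0.85, adjusted p = 0.0389).

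Among the Rab genes of regulated secretion 2 of 5 were higher and none lower after quantile normalization, against 31.3% and 14.5% of all tested probes. The 3 tested Rab3 paralogs again differed. Under median centring Rab3b (-0.60, adjusted p = 5.1e-07) and Rab27a (-0.61, adjusted p = 2.4e-07) were called lower. Rab3d, best known from secretory granules of exocrine cells, had 1574 to 5503 (median 2249) on Staufen2 arrays and 77.9 to 141 (median 107) on preimmune arrays, all of which detected it. Its groups were apart with a difference of 2.16 ± 0.32 (adjusted p = 0.000162). Rab3a, the main Rab of synaptic vesicles, had 106 to 478 (median 151) on Staufen2 arrays and 61.0 to 85.7 (median 74.8) on preimmune arrays, 1 of which detected it. Its difference of 0.36 ± 0.16 did not pass (adjusted p = 0.0799), turned to -0.18 under median centring, and without Staufen2 replicate 5, the array at 478, was 0.19 (adjusted p = 0.0169).

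Rab3b, another Rab3 of secretory vesicles, stayed close to background at 95.8 to 133 (median 112) on Staufen2 arrays and 66.5 to 81.1 (median 76.7) on preimmune arrays, with -0.063 ± 0.12 (adjusted p = 0.671). Rab26, linked to secretory and synaptic vesicles, had 201 to 309 (median 264) on Staufen2 arrays and 58.5 to 97.2 (median 83.8) on preimmune arrays. It was higher by 0.40 ± 0.14 (adjusted p = 0.0319), with overlapping normalized values and 0.02 under median centring, and leaving out 1 of 6 single arrays (Staufen2 replicates 1, 2 and 3, preimmune replicates 1, 2 and 6) ended the call, with an adjusted p of 0.0558 to 0.0717. Rab27a, a Rab of granule and exosome release, had 93.9 to 111 (median 103) on Staufen2 arrays and 64.1 to 85.0 (median 74.9) on preimmune arrays. None of the preimmune arrays detected it, and its bound allowed no fold (difference 0.047 ± 0.024, adjusted p = 0.125).

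Of the Rab genes of polarized delivery to the plasma membrane, Rab8a, which also acts at the primary cilium, was the second highest of the tested Rab genes. It had 319 to 2045 (median 819) on Staufen2 arrays and 66.2 to 91.4 (median 72.1) on preimmune arrays, 2 of which detected it, and a difference of 2.56 ± 0.34 (adjusted p = 7.3e-05). Rab10, which delivers membrane to growing axons, was at -1.30 ± 0.56 (adjusted p = 0.0724), with normalized values of 6.46 to 7.31 on Staufen2 arrays and 7.10 to 10.59 on preimmune arrays. Rab13, of cell junctions, was at -0.55 ± 0.30 (adjusted p = 0.149). Neither passed. Rab13 passed under median centring (-0.66, adjusted p = 8.7e-06), in the first code run (-0.94, adjusted p = 0.0457) and without preimmune replicates 2 and 6 (-0.86, adjusted p = 0.0217). On bright-probe values Rab10 passed at -1.45 (adjusted p = 0.0182), and without replicates 2 and 6 it was at -0.41 (adjusted p = 0.0953).

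The Rab40 genes encode Rab proteins with a SOCS box that joins ubiquitin ligases, and both were higher after quantile normalization, though Rab40c turned slightly lower under median centring. Rab40b had 192 to 426 (median 330) on Staufen2 arrays and 65.8 to 92.1 (median 75.8) on preimmune arrays, 2 of which detected it, with a difference of 0.80 ± 0.15 (adjusted p = 0.000908) that missed the threshold at 0.31 under median centring (adjusted p = 0.0579). Rab40c had 116 to 368 (median 226) on Staufen2 arrays and 67.4 to 82.4 (median 76.8) on preimmune arrays, none of which detected it. By quantile normalized values it was at least 1.22-fold higher, an untested bound set by the lowest normalized value of detected probes on each preimmune array. Its fitted difference was 0.45 (limma adjusted p = 0.00332), and -0.095 under median centring. Rab28, a Rab of cilia, was at 0.45 ± 0.25 (adjusted p = 0.157) and passed under median centring at 2.06 (adjusted p = 1.2e-05) and on bright-probe values at 0.67 (adjusted p = 0.0134).

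The paralogs were then set against each other, since probes of 1 Rab number encode closely related proteins. For each of 9 pairs the difference between the normalized values of both probes was taken on every array and compared between the groups (two-sided exact permutation test over every split of the 12 arrays, smallest possible p 0.00216, adjusted over the 9 pairs). A probe's own brightness enters such a value in both groups, so only its change between groups is read. Brightness need not cancel near background, where normalized values level off and the change of a dim probe can be understated. On preimmune arrays Rab5a lay at 5.99 to 6.42 and Rab3a at 5.97 to 6.18. For 7 of 9 pairs the paralogs differed past the threshold, and for 5 of them the 2 groups of arrays did not overlap. How often unrelated pairs of probes differ in this way was not counted, so these counts are not particular to paralogs. The pairs within Rab3 and within Rab5 share genes and are not independent of each other.

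Rab5b exceeded Rab5c by 2.51 log2 units of difference (exact p = 0.00216, adjusted p = 0.0039). The Rab5b minus Rab5c value was 0.57 to 1.47 on Staufen2 arrays and -2.55 to -0.82 on preimmune arrays. Rab5a stayed below Rab5b by -3.05 (exact p = 0.00216, adjusted p = 0.0039), with array values of -4.22 to -3.52 in Staufen2 and -1.58 to -0.066 in preimmune immunoprecipitates. Rab5b was thus apart from both of its paralogs, also under median centring, with 1.56 for Rab5b minus Rab5c and -3.87 for Rab5a minus Rab5b. Rab5a and Rab5c differed by -0.54 (exact p = 0.0281, adjusted p = 0.0362) with overlapping groups. That pair was at -2.31 under median centring and -2.18 without scaling (exact permutation, adjusted p = 0.0039 for both), and at -0.16 without background correction (exact permutation, adjusted p = 0.431). It was at -0.21 in the first code run (exact permutation, adjusted p = 0.386) and at -0.54 without a call with the run as a block (exact permutation, adjusted p = 0.0643), and 8 of 12 leave-one-out tests lost the call (adjusted p 0.0557 to 0.0812 in those, exact permutation).

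**Figure D3:**
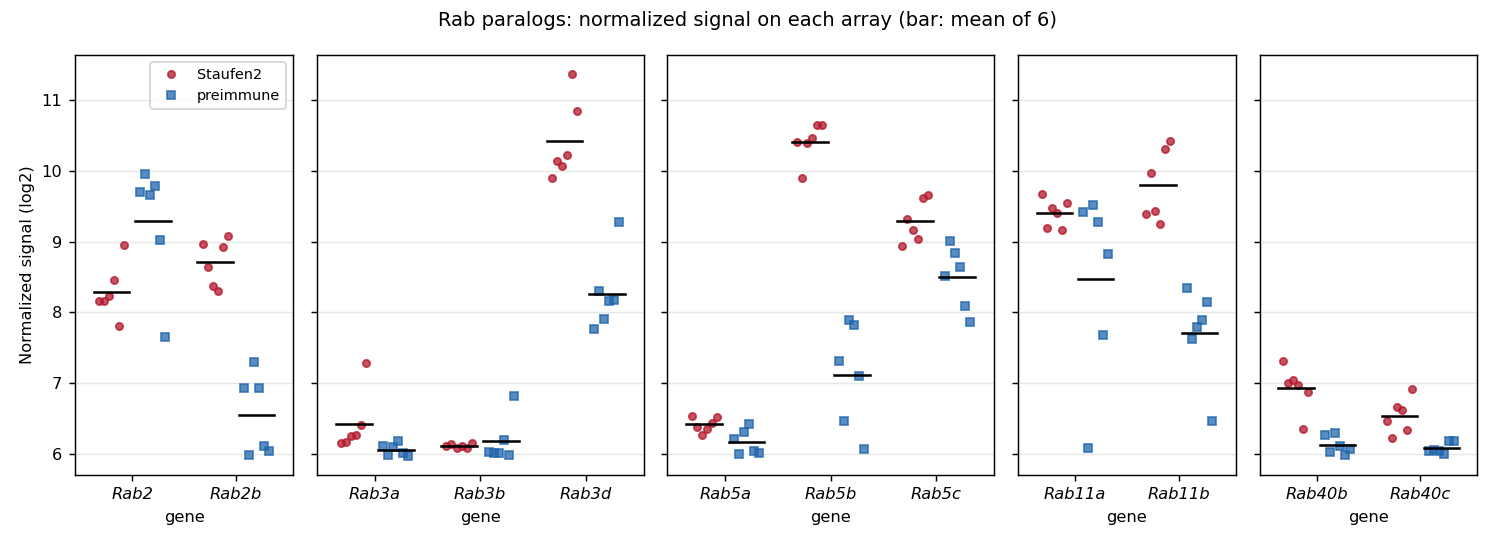
Normalized log2 signal of the tested Rab paralogs on each array, Staufen2 (circles) left of preimmune (squares) for each gene, with a bar at the mean of 6 arrays. Rab2b, Rab3d and Rab5b show gaps between the groups, at differences of 2.17, 2.16 and 3.30, as do Rab11b, Rab40b and Rab40c. The mean of Rab2 is lower in Staufen2 immunoprecipitates at -1.003, with overlapping groups.

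Rab2 minus Rab2b was -3.17 (exact p = 0.00216, adjusted p = 0.0039), with array values of -1.12 to 0.16 in Staufen2 and 1.60 to 3.98 in preimmune immunoprecipitates. Its direction held under median centring (-1.67) and without scaling (-1.13). Rab3d exceeded Rab3a and Rab3b, with -1.80 for Rab3a minus Rab3d and -2.23 for Rab3b minus Rab3d (exact p = 0.00216 and adjusted p = 0.0039 for both), and with -3.61 and -4.02 under median centring. Rab3a and Rab3b differed by 0.42 (exact p = 0.0195, adjusted p = 0.0292), at 0.069 in the first code run (exact permutation, adjusted p = 0.220), and 6 of 12 leave-one-out tests lost the call (adjusted p 0.0501 to 0.109 in those, exact permutation).

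Rab11a minus Rab11b was -1.14 (exact p = 0.110, adjusted p = 0.110), with array values of -1.14 to 0.28 in Staufen2 and -1.55 to 2.36 in preimmune immunoprecipitates. Without preimmune replicate 2 it was -1.60 (exact permutation, adjusted p = 0.0195), and without replicates 2 and 6 -1.32 (exact permutation, adjusted p = 0.0429). Rab40b minus Rab40c was 0.35 (exact p = 0.0714, adjusted p = 0.0804), and without Staufen2 replicate 5 it was 0.44 (exact permutation, adjusted p = 0.0325). It passed with the code run as a block (0.35, exact permutation, adjusted p = 0.00714) and in the first run alone (0.45, exact permutation, adjusted p = 0.0429). Under median centring both passed, at -0.90 and 0.41 (exact permutation, adjusted p = 0.0438 and 0.0476). For these 2 pairs a missed threshold does not show that the paralogs were recovered alike. Rab3a, Rab3b, Rab5a and Rab40c, the dimmer members of their pairs, were detected on 1, 1, 2 and 0 preimmune arrays. Rab2b, Rab5b and Rab40b were detected on 3, 4 and 2 of them. The part of signal near background in these contrasts was not tested.

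The direction of a Rab gene relative to the rest of the array was set against other scalings and a stricter detection filter. Centring each array on its median gave 14 higher and 5 lower Rab genes, against 34.2% and 41.4% of all tested probes, with a median of 0.85 for the Rab genes and -0.05 for all tested probes. The 5 lower ones were Rab5a, Rab31, Rab3b, Rab27a and Rab13. On bright-probe values, taken from 3626 probes well above background on at least 10 arrays, 13 Rab genes remained. Of these 8 were higher and 4 lower, against 28.0% and 39.1% of the bright probes, with a median of 0.80 for the Rab genes and -0.29 for the bright probes. Among probes detected on all 12 arrays, 3 of 6 Rab genes were higher and 2 lower, against 15.7% and 57.6% of such probes, with a median of 0.72 for the Rab genes and -1.02 for all of them.

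The 8 higher genes on bright-probe values included Rab3d at 2.16, Rab1 at 1.99, Rab7 at 1.94, Rab11b at 1.80, Rab18 at 1.33, Rab11a at 0.89, Rab5c at 0.80 and Rab28 at 0.67. The 4 lower ones were Rab24 at -2.27, Rab10 at -1.45, Rab2 at -0.85 and Rab9 at -0.70. Rab5b, Rab8a, Rab2b and Rab14 had no bright-probe value, since too few preimmune arrays rose above background for them. In the first code run 14 Rab genes were higher and 4 lower (median 0.50, and 0.05 over all tested probes), against 30.6% and 16.8% of all tested probes. With the run as a block 16 and 2 were called, against 33.5% and 15.8%. In the second run limma called 0 of 28 Rab genes and 0 of 9136 probes with 2 arrays per group, 13 and 3017 of them at an unadjusted p under 0.05, and the Rab median was 0.90.

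**Figure D4:**
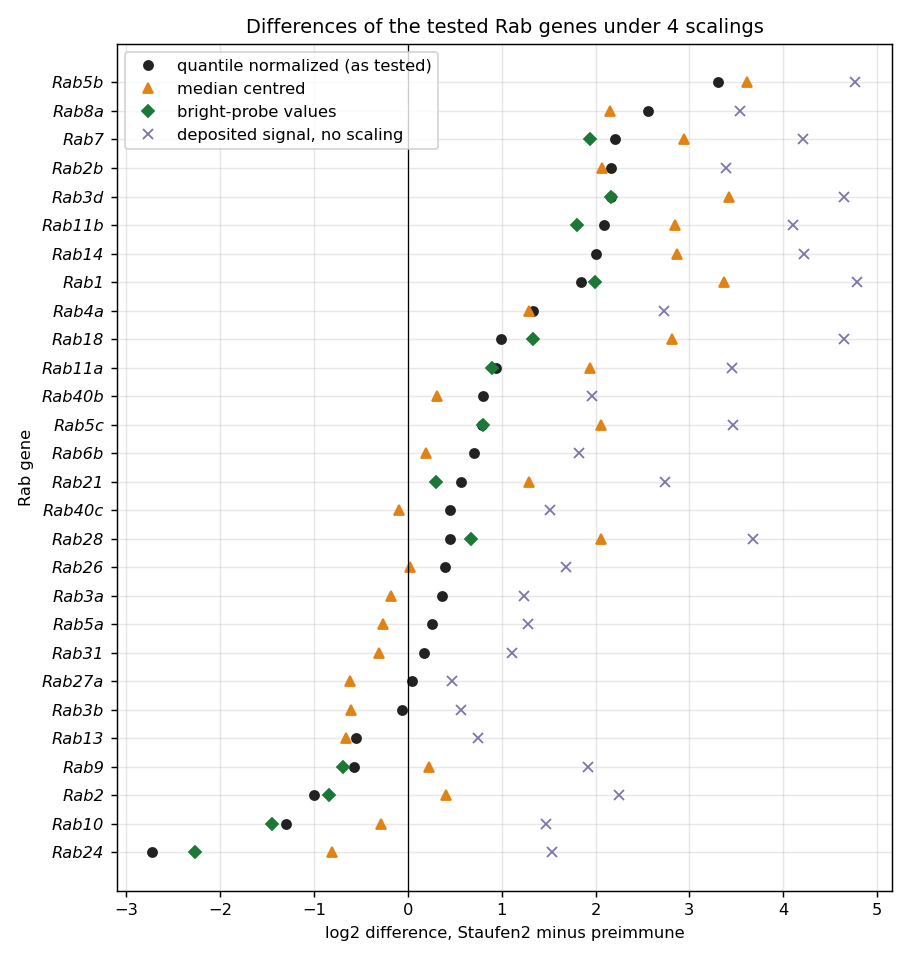
Log2 difference, Staufen2 minus preimmune, of the 28 tested Rab genes under 4 scalings: quantile normalization (circles), median centring (triangles), bright-probe values (diamonds, 13 genes) and deposited signal without scaling (crosses). The crosses lie above 0 for all 28 genes, and Rab24 is the lowest under the first 3.

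Regulators and effectors of the Rab cycle were read from 5 lists chosen with earlier results of these data known, of which 109 genes were tested out of 170 on the array. Together 43 were higher and 7 lower, against 31.3% and 14.5% of all tested probes, with a median of 0.18 against 0.08. Genes of prenylation and recycling gave 6 higher and 1 lower of 13, exchange factors 9 and 2 of 34, GTPase-activating proteins 9 and 1 of 18, effectors 17 and 3 of 39, and Rab-like proteins 2 and 0 of 5. The medians of the lists ran from 0.16 to 0.22.

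Among the genes of prenylation and recycling, Rabif, a chaperone of nucleotide-free Rab proteins, was higher by 2.36 ± 0.28 (adjusted p = 3.3e-05). Zmpste24, a protease of prenylated proteins, was higher by 1.12 ± 0.23 (adjusted p = 0.00162). Chm, the Rab escort protein that presents Rab proteins for prenylation, was called lower at -2.46 ± 0.59 (adjusted p = 0.0045), but its signals were 112 to 126 on Staufen2 arrays and 98.4 to 120 on preimmune arrays, a difference of 0.16 without scaling.

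Of the exchange factors, Trappc5, a subunit of the TRAPP complex that activates Rab1, had 3661 to 6292 (median 4965) on Staufen2 arrays and 75.7 to 166 (median 108) on preimmune arrays. It was higher by 3.27 ± 0.30 (adjusted p = 6.4e-06), while Trappc1, another TRAPP subunit, was lower at -1.35 ± 0.31 (adjusted p = 0.00353), which turned to 0.31 under median centring and 2.29 without scaling. Dennd10, a DENN domain protein of late endosomes, was at 2.72 ± 0.33 and Wdr41, a partner of C9orf72, at 1.94 ± 0.27. Dennd2b was called lower at -2.45 ± 0.70 (adjusted p = 0.0116), on signals of 120 to 143 on Staufen2 arrays and 96.2 to 116 on preimmune arrays, an unscaled difference of 0.26.

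Of the GTPase-activating proteins, Tbc1d7, also a subunit of the TSC complex, was higher by 2.65 ± 0.34, Tbc1d19 by 2.04 ± 0.34 and Tbc1d31 by 1.37 ± 0.29 (adjusted p of 5.3e-05, 0.000383 and 0.00213). Tbc1d22b was lower at -2.22 ± 0.61 (adjusted p = 0.00904), on signals of 111 to 135 on Staufen2 arrays and 96.9 to 110 on preimmune arrays, an unscaled difference of 0.22. Among effectors Vps26b, a retromer subunit that binds membranes with Rab7, was higher by 2.19 ± 0.25 (adjusted p = 2.3e-05). Ocrl, an inositol phosphatase that binds several Rab proteins, was detected on no preimmune array. By quantile normalized values it was at least 1.51-fold higher. Its fitted difference was 0.84 (limma adjusted p = 2.1e-05), and 0.31 under median centring (limma adjusted p = 0.0117).

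Gorasp2, a Golgi stacking protein, was lower at -1.08 ± 0.21 (adjusted p = 0.000957), which turned to 0.69 under median centring and 2.54 without scaling. Rims3, of the family of presynaptic Rab3 effectors, and Mical1, an actin oxidising Rab effector, were lower at -2.15 ± 0.62 (adjusted p = 0.0118) and -1.09 ± 0.33 (adjusted p = 0.0152), with unscaled differences of 0.15 and 0.92. Micall2, a Rab13 effector, and the Rab-like genes Rabl2 and Rabl3 were detected on no preimmune array. By quantile normalized values Rabl3 was at least 1.38-fold higher and Rabl2 at least 1.01-fold, and the bound of Micall2 allowed no fold. These bounds were not tested. The fitted differences were 0.63 for Rabl3, 0.22 for Rabl2 and 0.23 for Micall2 (limma adjusted p of 0.00167, 0.00386 and 4.5e-05). The fitted differences of Rabl2 and Micall2 were -0.40 and -0.41 under median centring, and that of Rabl3 was 0.087 without a call (adjusted p = 0.568).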

How the data were processed

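The authors deposited a signal intensity and a detection p-value for each of 22226 probes and 12 arrays, per the file headers, and a value table whose 266712 log2 values equal the log2 of the deposited intensity within 0.0001. RMA is named in the submitters' processing notes, and the array annotation version is not given in the sources used here. Detection columns carry codes absent from the labels and were assigned to the signal column beside them. With probes ranked by signal, 205 to 268 of 22225 steps broke the order in an array's own column and at least 6730 in that of another array. Bead standard errors were not used. No 2 arrays held identical values.

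Signals were corrected with limma's normexp model from the detection p-values (offset 16), quantile normalized and put on the log2 scale (limma 3.58.1, R 4.3.3). Probes that 6 or more arrays detected (detection p-value under 0.05) were fitted with lmFit and eBayes (intensity trend, two-sided, Benjamini-Hochberg over 9136 probes, threshold 0.05). Each gene is read from its probe with the highest mean. Paralog pairs were compared with exact permutation tests in R 4.3.3, and Python 3.11.15 was used for gene names and figures. Symbols were updated for names alone, through a reference gene table. The number of arrays limits the precision.

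Full values are given for every tested gene of a Rab number with at least 2 tested genes and for the 6 highest and 4 lowest called Rab genes, and for each list of regulators up to 3 called genes with the smallest adjusted p in each direction. Some single-gene values that this rule names are not reported here. Values of other tested Rab genes are shorter or were added after their values were seen. The members, lists, tests and alternatives were chosen with earlier results of these data known. The pipeline was also run on simulated arrays whose groups shared the same mean signals apart from the set changes. The unequal signal of the real groups was not covered by that run. Alternatives were another detection filter, scaling, background correction or offset, array weights, code runs, replicate blocks and left-out arrays. Bright-probe values are from probes at least 3 SD above background on at least 10 arrays, minus background, floored at 1 SD and centred on the array median of such probes.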

Additional observations from a re-analysis of the deposited data

Results flagged for a closer look

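Within groups of 6 arrays, 8 of the 56 groups of normalized values of the 28 tested Rab genes had 1 array whose gap to its nearest neighbour was large for the group's range by Dixon's criterion at 95%, which chance meets in about 1 of 20 groups. Staufen2 replicate 5 stood high for Rab3a at 7.29 (nearest array 6.40, deposited signal 478) and for Rab31 at 6.95 (nearest 6.41, signal 379). Staufen2 replicate 4 stood high for Rab9 at 7.48 (nearest 7.31). Rab5b stood low at 9.90 on Staufen2 replicate 1, with the nearest at 10.39, and Rab24 low at 7.95 on Staufen2 replicate 0, with the nearest at 8.50. Preimmune replicate 6, which detected the fewest probes, stood high for Rab3b at 6.81 (nearest 6.19) and for Rab3d at 9.28 (nearest 8.29), on deposited signals of 72.05 and 77.9. Preimmune replicate 2 stood low for Rab1 at 8.42 (nearest 8.98, signal 89.7).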

How the results depend on the processing

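The 16 higher and 2 lower Rab calls became 14 to 16 and 1 to 3 when 1 array was left out. Lower calls were 1 in 9 of these 12 cases, in each of which Rab2 had lost its call. Without a detection filter 1 of 40 Rab genes was lower (2.5%, against 6.86% of all probes), the median was 0.23 and 11 of 14 pairs differed. Detection on all 12 arrays left 3 higher Rab genes of 6, against 15.7% of such probes. It left 3 higher regulators and effectors, out of fewer than 109, so that count cannot be set against this share. Median centring gave 5 lower Rab genes of 28 and a median of 0.85. It gave 44 lower regulators and effectors of 109, against 41.4% of all tested probes. Without scaling, corrected signals gave 28 higher and 0 lower Rab genes (median 3.47) and 109 higher and 0 lower regulators and effectors. Of all 9136 tested probes 9135 were then higher. Deposited signals, chosen after seeing the data, gave 28 and 0 (median 2.49) and 107 and 0, against 97.5% of all tested probes higher. Bright-probe values gave 8 higher and 4 lower Rab genes, against 28.0% higher and 39.1% lower of the bright probes. They also gave 18 higher regulators and effectors, out of fewer than 109, so that count cannot be set against these shares. They gave 0 of 1 pair (Rab11a minus Rab11b, exact p = 0.0801). Lower Rab calls were 4 of 28 (14.3%) with array weights, in the first code run and without preimmune replicates 2 and 6. Lower regulators and effectors were 22, 13 and 15 of 109. Of all tested probes 31.6%, 16.8% and 25.9% were lower in these settings. With members by current symbol, chosen after seeing the data, 4 of 31 Rab genes were lower (12.9%, against 14.5% of all tested probes). The second run alone gave 0 calls in each direction for both, at a Rab median of 0.90. With 1 array left out the Rab median was 0.51 to 0.76 and the pairs 5 to 7. Of 109 regulators and effectors 37 to 45 were then higher, against 2606 to 2946 of 9136 probes. Lower were 7 to 12, against 11.7% to 19.9% of all tested probes. The cause of these shifts was not tested.

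Among genes given in full, directions turned under median centring for Rab2 (0.40), Rab3a (-0.18), Rab5a (-0.26), Rab40c (-0.095), Trappc1 (0.31), Micall2 (-0.41), Gorasp2 (0.69) and Rabl2 (-0.40), and among the other tested Rab genes for Rab27a (-0.61), Rab31 (-0.31) and Rab9 (0.22). They turned without scaling, on corrected and on deposited signals, for Rab2 (3.03 and 2.25), Rab3b (2.02 and 0.57), Rab24 (1.82 and 1.53), Chm (1.39 and 0.16), Trappc1 (2.93 and 2.29), Dennd2b (1.41 and 0.26), Tbc1d22b (1.47 and 0.22), Gorasp2 (3.32 and 2.54), Rims3 (1.47 and 0.15) and Mical1 (2.03 and 0.92), and on deposited signals for Rab9 (1.92), Rab10 (1.47) and Rab13 (0.75) as well. Rab2 was at 0.047 in the second run. Rab3b was at 0.046 in the first run and 0.055 without preimmune replicates 2 and 6, and ran from -0.10 to 0.064 with 1 array left out, the last without preimmune replicate 6.

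The deviations of same-numbered arrays correlated at 0.26, 0.051, 0.22, -0.12 and 0.30 for numbers 1 to 5, and 3 of 5 matched their own number best. Not every correlation was over 0.1, so the numbers were not taken as pairs. A block by these numbers was fitted on arrays 1 to 5, so without Staufen2 replicate 0 and preimmune replicate 6. It gave 13 higher Rab genes, against 2553 of 9136 probes, and 2 lower (7.14%), against 17.5%. Rab3b was at 0.065, and Rab5a (0.20, adjusted p = 0.108), Rab5c (0.74, adjusted p = 0.0532) and Rab26 (0.34, adjusted p = 0.143) had no call. The part of the left-out arrays in these changes was not tested. For the paralog test the replicate block, array weights, the second run alone and detection on all 12 arrays were not run. Signal near background limits the dim genes, whose preimmune detections are given above.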

Other observations

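Further probes carry a current Rab name but another symbol in the file, and they were looked up after the data had been seen. Rab33a, a Golgi Rab of the brain, had median signals of 663 on Staufen2 arrays and 148 on preimmune arrays and was lower by quantile normalized values (-1.23 ± 0.30, limma adjusted p = 0.00487), at 0.37 under median centring and 2.22 without scaling. Rab30, another Golgi Rab, had medians of 513 on Staufen2 arrays and 87.3 on preimmune arrays and was higher by 1.19 ± 0.25 (limma adjusted p = 0.00193). Rab25, an epithelial Rab of the Rab11 family, was called lower at -2.56 ± 0.67 (limma adjusted p = 0.00743) on overlapping signals, with medians of 121 on Staufen2 arrays and 106 on preimmune arrays and an unscaled difference of 0.15. Rab7b, Rab9b, Rab17, Rab19, Rab43 and Rab44 were detected on too few arrays to be tested.

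Both Staufen2 arrays of the second code run lay above the 4 of the first for 8 tested Rab genes (Rab1, Rab3a, Rab3d, Rab5b, Rab5c, Rab8a, Rab9 and Rab11b) and below them for Rab28 and Rab40b, against 21.3% and 19.4% of all tested probes.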
